A study of Mus musculus with 4 samples.

Results

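Nucleic acid sensors were followed in primary ear fibroblasts held in 2 states of the small nucleolar RNA AF357425, in whole-cell RNA and in RNA recovered with fibrillarin. The group held 10 genes, found by symbol among the 55536 Ensembl genes of both count tables: Ddx58, Ifih1, Dhx58, Tlr3, Mavs, Eif2ak2, Zbp1, Tbk1, Adar and Trex1. The cells came from C57BL/6 mice and, in every group, had 48 h of KN93 to synchronize the cell cycle followed by 24 h of transfection. Each of the 4 groups was a single library: AF357425-High and AF357425-Low, once as whole-cell RNA and once as a fibrillarin pulldown. The sample characteristics call High overexpression and Low inhibition, whereas the treatment protocol names gapmers (antisense oligonucleotides) against AF357425 or a scrambled control. Which oligonucleotide each state received is therefore not settled by the labels. A pulldown with a control antibody was not analysed here, and the labels do not say whether a pulldown and a whole-cell library came from the same culture.

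Cells detect foreign nucleic acid with dedicated receptors. In the cytosol, the helicases RIG-I (Ddx58) and MDA5 (Ifih1) bind double-stranded RNA and signal through the mitochondrial adaptor Mavs to the kinase Tbk1, which switches on type I interferon genes; in endosomes, Tlr3 does the same through another adaptor. Interferon then raises many of the sensors themselves, so that several members are both sensors and interferon targets. Fibroblasts are well known for this response to double-stranded RNA.

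Reads assigned to genes numbered between 21693030 and 27832061 per library. Mitochondrial ribosomal RNA took 63.4% and 59.8% of them in the High and Low pulldowns and 0.0926% and 0.0583% in High and Low whole-cell RNA, so levels in CPM (reads of a gene per 1000000 gene reads of its library) are not on a common scale across the 2 kinds of library. AF357425 itself had 0 reads in all 4 libraries, which leaves the state labels unchecked by their target. The fibroblast identity was borne out by fibroblast markers, which summed to 14910 and 17545 CPM in High and Low whole-cell RNA. All 16 had reads in each library, and 14 of them reached a mean of 1 CPM in whole-cell RNA. Markers of immune cells, which also carry these sensors, were low beside the fibroblast markers. The 17 macrophage and dendritic cell markers summed to 13.5 and 13.4 CPM in High and Low whole-cell RNA. In the High and Low pulldowns they summed to 2.51 and 2.44 CPM. Adgre1, C1qa, C1qb, C1qc, H2-Ab1 and Flt3 were at 0 in all 4 libraries, and Csf1r, Cd68, Lyz2 and Cd14 were detected in each. The whole-cell sums lay above the whole-cell levels of Ifih1, Dhx58, Tlr3 and Zbp1, and below those of the other measured members. The 9 lymphocyte markers summed to at most 0.0719 CPM. Other marker lists were not even between the states: 8 mast cell markers, nearly all Mcpt8, summed to 49.3 and 18.6 CPM in High and Low whole-cell RNA and to 3.09 and 0.754 CPM in the pulldowns, with Cpa3, Mcpt4, Tpsb2 and Fcer1a at 0. Keratinocyte markers, mostly the widely expressed Perp, summed to 61.6 and 67.8 CPM in whole-cell RNA and to 47.5 and 23.9 CPM in the pulldowns. Perp was called higher in High in the pulldown, but not when scaled by library totals alone. Chondrocyte markers summed to 263 and 185 CPM in whole-cell RNA, where Col2a1 and Cnmd were called higher in High, and to 114 and 141 CPM in the pulldowns. Endothelial markers summed to 8.06 and 8.21 CPM in whole-cell RNA and to 3.44 and 6.04 CPM in the pulldowns. The part of such cells in the sensor values was not tested.

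The sequence at the transcription start was searched for a motif known from interferon-inducible genes, and 3 members held it. The windows searched were RefSeq promoters (GRCm38.p6), from 250 bases before to 50 bases after the start, available for 8 of the 10 members in 11 windows. The motif was the core of the interferon-stimulated response element, GAAA repeated after 2 bases of any kind, on either strand. It was present in 3.44% of all 32851 windows, and in those of Ddx58, Ifih1 and Eif2ak2. The following 30-base stretches read 5′ to 3′ on the strand of the gene (the minus strand for all of them), with the motif in capitals. They lie at chr4:40239804-40239833 for Ddx58, chr2:62646206-62646235 for Ifih1 and chr17:78882535-78882564 for Eif2ak2.
Ddx58: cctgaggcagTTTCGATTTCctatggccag
Ifih1: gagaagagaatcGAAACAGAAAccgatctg
Eif2ak2: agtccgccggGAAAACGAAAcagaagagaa
All 3 matches fell just downstream of the annotated start, beginning at base 3, 33 and 19 of the transcript in that order, and the Ddx58 match is on the opposite strand. No match was present in the windows of Tlr3, Mavs, Tbk1, Adar or Trex1, which says only that these letters are not in those windows. For Tlr3 and Adar the windows lay at starts inside the gene and did not cover the first transcribed base of the span given below. Dhx58 and Zbp1 were not searched.

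The levels of the members fell into 2 patterns. By share of gene reads, 6 members were highest in the High pulldown (Ddx58, Ifih1, Dhx58, Tlr3, Eif2ak2 and Zbp1) and 3 in High whole-cell RNA (Mavs, Tbk1 and Adar); without the mitochondrial ribosomal RNAs in the totals, Tbk1 joined the first set. Together the 10 genes took 392 CPM (exact 95% interval 384 to 400) in High whole-cell RNA and 341 CPM (333 to 349) in Low. In the pulldowns they took 841 CPM (830 to 852) in High and 274 CPM (268 to 280) in Low. Eif2ak2 alone gave 53.3% and 49.5% of the members' reads in the High and Low pulldowns, a share that also follows transcript length. These intervals, like all others given here, cover counting error only: with 1 library per group there is no replicate check, and PCR copies cannot be told from separate molecules.

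**Figure D1:**
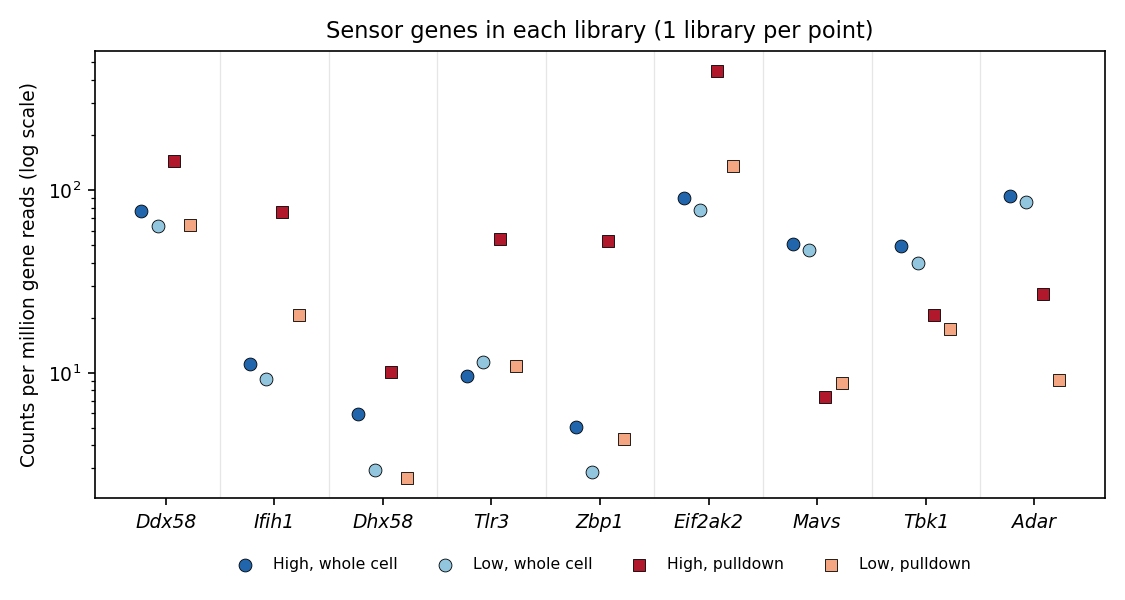
Level of each measured sensor gene in the 4 libraries, in CPM on a log scale; circles are whole-cell RNA, squares the fibrillarin pulldown, and each point is 1 library. Zbp1 stands at 52.5 in the High pulldown against 2.86 to 5.07 in the other libraries. Mavs, Tbk1 and Adar each stand lower in both pulldowns than in whole-cell RNA. Trex1 had 0 reads and is not drawn.

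High was set against Low separately for each kind of RNA, scaled by the trimmed mean of M values (TMM), and each gene was given a log2 ratio of High over Low with an exact 95% interval. A gene counts as called where its whole interval lies beyond 2-fold, and as measured from a mean of 1 CPM over the pair of libraries; 9 members were measured and Trex1 was not. In the pulldown, 7 of the 9 were called higher in High and none lower, where 3.43% of the 10736 measured genes were called higher and 2.9% lower. With library totals in place of TMM, which shift every pulldown log2 ratio by -0.29, the same 7 members were called, while the split of all genes moved from 368 higher and 311 lower to 238 higher and 608 lower. In whole-cell RNA none of the 9 was called, where 0.111% of 13519 genes were called higher and 0.133% lower. The members' median log2 ratio was 2.02 in the pulldown and 0.20 in whole-cell RNA, against -0.01 for all measured genes in each. In bulk RNA, a change in the number of cells of a kind and a change of RNA per cell cannot be told apart.

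Among the cytosolic helicases, Ddx58 (ENSMUSG00000040296, GRCm38.p6 chromosome 4, 40203777 to 40239825), which recognises short double-stranded RNA with a terminal triphosphate, stood at 76.6 and 63.5 CPM in High and Low whole-cell RNA and at 145 and 64.5 CPM in the pulldowns. By share of gene reads the High pulldown was the highest; with the mitochondrial ribosomal RNAs left out of the totals, both pulldowns lay above whole-cell RNA, at 397 and 160 CPM. Its pulldown log2 ratio was 1.46 (95% interval 1.38 to 1.55), the smallest of the called members, and its whole-cell ratio 0.20 (0.10 to 0.31).

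Ifih1 (ENSMUSG00000026896, chromosome 2, 62595618 to 62646255), the sensor of long double-stranded RNA, stood at 11.2 and 9.22 CPM in whole-cell RNA and at 76.3 and 20.7 CPM in the pulldowns. Both pulldowns lay above both whole-cell libraries in share of reads. Its pulldown log2 ratio was 2.18 (2.04 to 2.32), and the whole-cell interval held 0 (0.21, -0.06 to 0.49). The long noncoding gene Gm39839 lies within its span.

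Dhx58 (ENSMUSG00000017830, chromosome 11, 100694884 to 100704271) encodes LGP2, a relative of both helicases that lacks the signalling domain and modulates them. It was among the least abundant members, with 132 and 64 reads in whole-cell RNA (5.98 and 2.95 CPM) and 260 and 74 reads in the pulldowns (10.1 and 2.66 CPM). High was the higher state in both kinds of library. The whole-cell log2 ratio of 0.95 (0.51 to 1.41) was the largest among the members, but its interval reached below the 2-fold line, and the pulldown ratio was 2.21 (1.84 to 2.61). Its span overlaps the long noncoding gene Gm38483.

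Tlr3 (ENSMUSG00000031639, chromosome 8, 45395665 to 45411075), the endosomal receptor for double-stranded RNA, had 9.60 and 11.4 CPM in whole-cell RNA and 53.9 and 10.9 CPM in the pulldowns. The High pulldown was the highest, and without the mitochondrial ribosomal RNAs both pulldowns lay above whole-cell RNA, at 148 and 27.2 CPM. The pulldown log2 ratio was 2.599 (2.42 to 2.78), and Tlr3 was the sole member below 0 in whole-cell RNA, at -0.32 (-0.59 to -0.05). Scaled by library totals alone, that interval reached 0.02.

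Zbp1 (ENSMUSG00000027514, chromosome 2, 173206612 to 173218959) binds left-handed (Z-form) nucleic acid and can start necroptosis. It had the largest difference, with 1357 reads in the High pulldown and 121 in the Low pulldown (52.5 and 4.35 CPM), against 112 and 62 reads in whole-cell RNA (5.07 and 2.86 CPM). The High pulldown was 14.8-fold higher than the Low pulldown (12.3 to 17.98), a log2 ratio of 3.89 (3.62 to 4.17) that ranked 30 among all measured genes. In whole-cell RNA the log2 ratio was 0.76 (0.30 to 1.23).

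Eif2ak2 (ENSMUSG00000024079, chromosome 17, 78850504 to 78882572) encodes PKR, the kinase that halts translation when it binds double-stranded RNA. It had the most reads of the members in the pulldowns, 11586 and 3772 (448 and 136 CPM), against 2001 and 1695 (90.6 and 78.1 CPM) in whole-cell RNA. Its pulldown log2 ratio was 2.02 (1.97 to 2.07), 4.06-fold, and its whole-cell ratio 0.15 (0.05 to 0.24). The span of the transcribed pseudogene Gm6548 begins at the same base and lies within that of Eif2ak2; it had 557 and 165 reads in the pulldowns, so part of either gene's reads may belong to the other. The span of Gm26637 overlaps the other end of Eif2ak2 and had at most 21 reads in a library.

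The signalling members were called in neither kind of library. Mavs (ENSMUSG00000037523, chromosome 2, 131234063 to 131248025), the adaptor on which RIG-I and MDA5 converge, had 50.7 and 47.3 CPM in whole-cell RNA and 7.35 and 8.77 CPM in the pulldowns. The states lay close together within each kind of library, and the whole-cell libraries were the higher ones. Its log2 ratio was 0.04 (-0.09 to 0.16) in whole-cell RNA and 0.04 (-0.24 to 0.32) in the pulldown, where library totals turned the sign (-0.25, -0.54 to 0.02). Tbk1 (ENSMUSG00000020115, chromosome 10, 121546455 to 121586794), the kinase that phosphorylates the interferon factor Irf3, had 49.5 and 39.9 CPM in whole-cell RNA and 20.7 and 17.4 CPM in the pulldowns. High was the higher state in both kinds of library, by a log2 ratio of 0.25 (0.12 to 0.38) in whole-cell RNA and 0.55 (0.37 to 0.73) in the pulldown, and neither was called.

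The last members limit the ligands of the sensors. Adar (ENSMUSG00000027951, chromosome 3, 89714469 to 89753455) edits adenosine to inosine in double-stranded RNA, which hides it from MDA5; counts per gene do not separate its interferon-inducible long form from the constitutive short one. It had 92.6 and 85.8 CPM in whole-cell RNA but 26.8 and 9.09 CPM in the pulldowns. By share of gene reads the pulldowns were lower than whole-cell RNA, yet they differed between the states by a log2 ratio of 1.86 (1.65 to 2.07), against 0.04 (-0.05 to 0.14) in whole-cell RNA. The Adar span overlaps that of Chrnb2 at one end, which had at most 33 reads. Trex1 (ENSMUSG00000049734, chromosome 9, 109057932 to 109059723), a nuclease that removes cytosolic DNA, had 0 reads in all 4 libraries, which allows up to 0.136, 0.138, 0.116 and 0.108 CPM in the High and Low whole-cell libraries and the High and Low pulldowns. That limit bounds counted reads and not expression: the RefSeq span of Trex1 lies almost wholly inside the readthrough gene Atrip-trex1, and fragments that matched more than 1 gene, 1.05% and 1.09% of all fragments in the whole-cell libraries but 9.38% and 8.54% in the pulldowns, were set aside as ambiguous. The neighbouring Atrip had 392, 340, 108 and 165 reads in the same order.

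**Figure D2:**
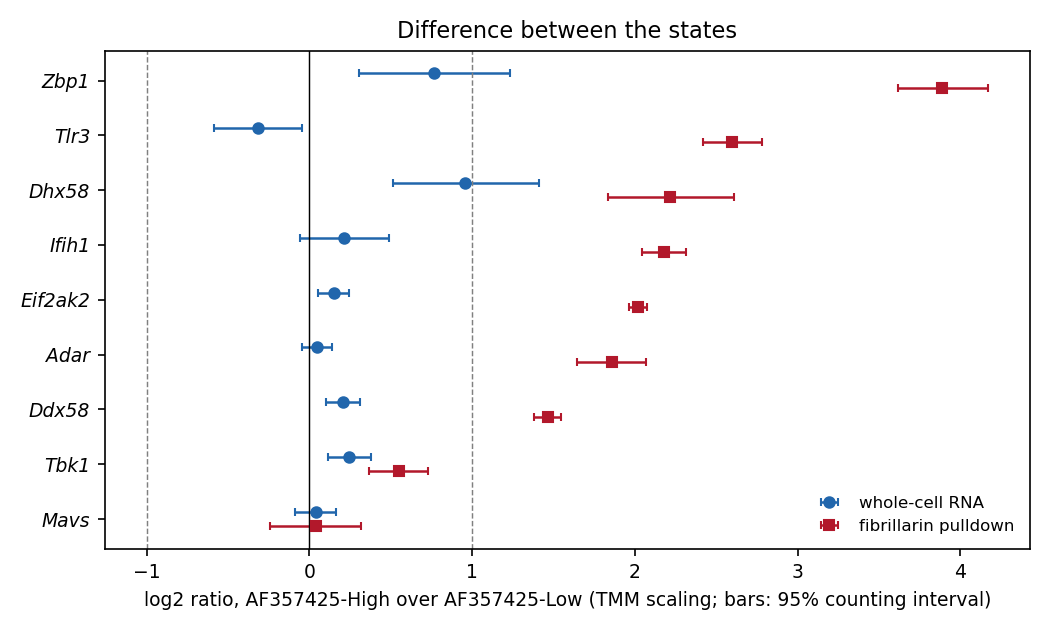
Log2 ratio of AF357425-High over AF357425-Low for the 9 measured sensors, with exact 95% counting intervals; circles are whole-cell RNA, squares the fibrillarin pulldown, and dashed lines mark 2-fold. In the pulldown 7 members lie wholly beyond 2-fold, from Ddx58 at 1.46 to Zbp1 at 3.89, and in whole-cell RNA none does.

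The size of the pulldown difference set some members apart and not others. Zbp1 exceeded Tlr3, the next in order, by 1.29 on the log2 scale (95% interval 0.97 to 1.61, from counts). Tlr3, Dhx58 and Ifih1 followed, and the intervals of the differences between neighbours held 0. Tlr3 and Ifih1 are not neighbours in this order and were not compared directly. Their own intervals (2.42 to 2.78 and 2.04 to 2.32) do not overlap. Ifih1 exceeded Eif2ak2 by 0.16 (0.02 to 0.30), and Eif2ak2 and Adar did not differ beyond counting error (0.16, -0.05 to 0.38). Adar exceeded Ddx58 by 0.39 (0.17 to 0.62), Ddx58 exceeded Tbk1 by 0.92 (0.72 to 1.11), and Tbk1 exceeded Mavs by 0.51 (0.18 to 0.83). In whole-cell RNA only the steps from Zbp1 to Tbk1 (0.52, 0.05 to 0.98) and from Mavs to Tlr3 (0.35, 0.06 to 0.65) lay above 0.

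Pulldown and whole-cell RNA were then compared within each state, which asks how much of each library a member took. The labels give a different library type for each kind of RNA and state ribosomal RNA depletion for the pulldown, so the place of a member among all genes is given beside its ratio. By library totals the median was -2.14 over 12563 genes with reads in both High libraries and -1.74 over 12606 genes in Low. Of the 12795 genes measured in this comparison, 59.7% were called lower and 1.56% higher in the pulldown of both states. Of the 9 members 3 (Mavs, Tbk1 and Adar) were called lower in both states and none higher, but with the mitochondrial ribosomal RNAs left out of the totals none was called lower in both states and 5 were called higher (Ddx58, Ifih1, Tlr3, Eif2ak2 and Zbp1). The 1.56% does not apply to those totals. With them, taking each state alone, 1039 of the 12795 genes were called higher in High and 1485 in Low. The genes called lower numbered 4160 in High and 3666 in Low. Under that scaling Mavs still lay below 0, at -1.34 in High and -1.12 in Low, and so did Adar, at -0.34 and -1.92, whereas Tbk1 lay above it, at 0.19 and 0.11. Which members were called in this comparison thus moved with the scaling, which shifts all genes alike and leaves their ranks as they are.

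Most sensors ranked high among all genes in their pulldown ratio, and more so in High. Zbp1 had a log2 ratio of 3.37 (3.09 to 3.66) in High, above 98.98% of genes, and of 0.61 (0.15 to 1.07) in Low, above 94.8%. Ifih1 had 2.77 (2.58 to 2.97) in High, above 98.7% of genes, and 1.16 (0.93 to 1.40) in Low, above 96.9%. Eif2ak2 had 2.31 (2.24 to 2.38) in High and 0.79 (0.71 to 0.88) in Low, above 98.4% and 95.6% of genes. These 3 were thus near the top of the ranking in either state. Tlr3 went from -0.07 (-0.31 to 0.18) in Low to 2.49 (2.28 to 2.71) in High, or from above 88.4% to above 98.5% of genes. Ddx58 ranked above 96.9% of genes in High and 89.6% in Low, and Dhx58 above 96.6% and 87.2%.

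Mavs, Tbk1 and Adar ranked lower. Mavs lay at -2.79 (-3.02 to -2.56) in High and -2.43 (-2.64 to -2.23) in Low, above 34.0% and 34.4% of genes, and Tbk1 at -1.26 and -1.20, above 74.3% and 64.2%. Adar changed most in place: at -3.24 (-3.43 to -3.05) in Low it lay above 18.8% of genes, and at -1.79 (-1.91 to -1.66) in High above 60.3%. It was thus among the lower genes in the Low pulldown and near the middle in the High one. These ratios share their pulldown libraries with the comparison of the states and are no separate support for it.

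**Figure D3:**
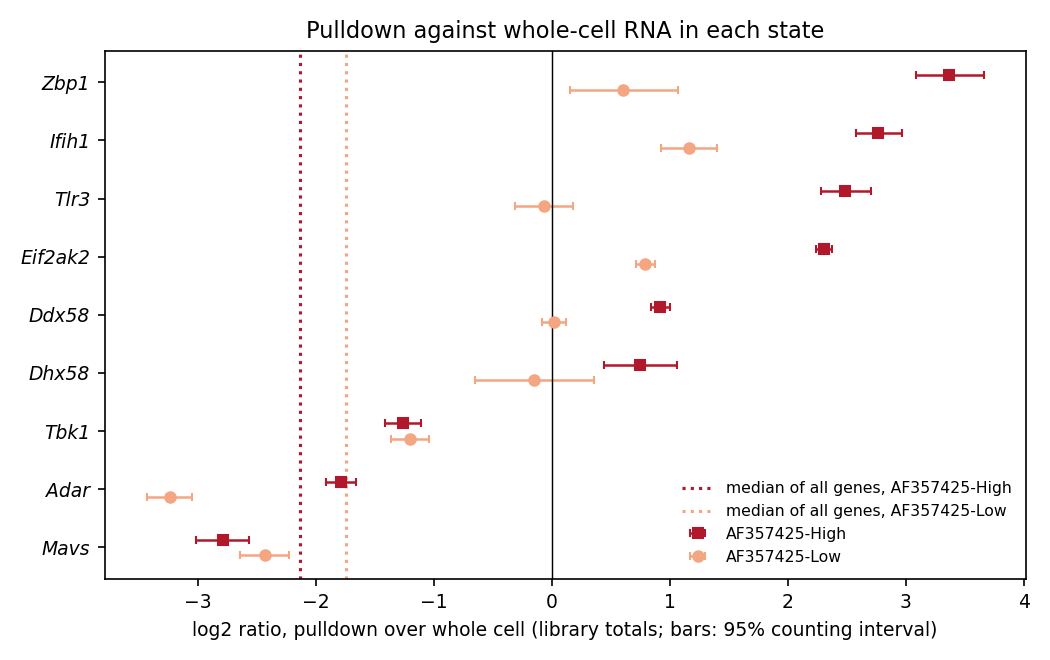
Log2 ratio of the pulldown over whole-cell RNA for the 9 measured sensors by library totals, with exact 95% counting intervals; squares are AF357425-High, circles AF357425-Low, and dotted lines the median of all genes in each state (-2.14 and -1.74). Zbp1, Ifih1, Tlr3 and Eif2ak2 lie far to the right in High, while Mavs, Adar and Tbk1 lie left of 0 in both states.

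Whether the pulldown difference went beyond that in whole-cell RNA was read from all 4 libraries, as the difference of the log2 ratios for genes that had 10 or more reads in all of them. Of 9 members 6 were called higher and none lower, where 2.65% of 11356 genes were called higher and 1.66% lower. Zbp1 had the largest value, 3.13 (2.604 to 3.65), followed by Tlr3 with 2.92 (2.597 to 3.24), which combined a lower whole-cell and a higher pulldown level in High. Ifih1 had 1.97 (1.67 to 2.27), Eif2ak2 1.87 (1.76 to 1.98) and Adar 1.81 (1.59 to 2.04). The helicases Ddx58 and Dhx58 had the same value of 1.26, with intervals of 1.13 to 1.39 and of 0.69 to 1.83, so that the first was called and the second, with fewer reads, was not. With library totals Ddx58 had 0.90 (0.77 to 1.03) and was no longer called. Tbk1 had 0.30 (0.08 to 0.52) and Mavs 0.00 (-0.30 to 0.30), and library totals turned both signs (-0.06 and -0.36).

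Genes around the sensors were read from 10 lists. In whole-cell RNA no measured gene of any of these lists was called, where 0.111% of 13519 genes were called higher and 0.133% lower. With shares that small, a lack of calls does not set these lists apart from all genes. The largest whole-cell differences were those of the exosome-related nuclease gene Dis3l, at -1.01 (-1.21 to -0.81), the DNA-sensing family member Ifi205, at 0.62 (-0.13 to 1.40), and the endolysosomal transporter Slc15a4, at -0.60 (-0.76 to -0.43). Among other lists, the ubiquitin ligase Rnf122 had -0.54, Cdkn2aip 0.50, Chuk -0.39, Casp6 -0.32, Ppp1r15b 0.31 and Usp18 0.27. For the pulldown, each count of called genes in a list is to be read beside the 3.43% of all measured genes called higher and the 2.9% called lower. Those shares belong to TMM scaling. Counts with library totals are to be read beside 238 higher and 608 lower among the 10736 measured genes.

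The oligoadenylate synthetases, enzymes that are activated by double-stranded RNA, and genes that act with them formed a list with 9 measured genes, of which 6 were called higher in High and none lower. Of these 6, 4 reached the mean of 1 CPM through the High pulldown alone, so that the count and the list's median carry no weight of their own. They were Oas2, with 142 and 10 reads in the High and Low pulldowns and a log2 ratio of 4.23 (3.31 to 5.32), Oas3 with 4.18 (3.44 to 5.01), Oasl1 with 4.14 (3.22 to 5.24) and Oas1a with 3.90 (2.79 to 5.26). Oasl2 reached the level in both pulldowns, with 3797 and 645 reads and a log2 ratio of 2.96 (2.84 to 3.08). With library totals 5 were higher and 1, the phosphodiesterase gene Pde12, lower. The first 4 had few reads in whole-cell RNA, between 2 and 14, and Oas1a has close paralogs that can share reads. Abce1, a further gene of the list, had -0.13 (-0.22 to -0.05) and was not called.

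Among the 10 measured interferon signalling genes, 5 were called higher (3.43% of all genes) and none lower (2.9%), with a median of 0.80. The ubiquitin-like modifier Isg15 had 2.90 (2.77 to 3.04; 2985 against 528 reads), the transcription factor Stat2 had 1.38 (1.26 to 1.49), and the protease Usp18, which removes Isg15, had 2.17 (1.92 to 2.43). The interferon receptor chain Ifnar1 had 0.00 (-0.12 to 0.13). With library totals the number called was 3, Stat2 and the feedback inhibitor Socs3 falling short. Isg15, Stat2 and Usp18 overlap another annotated gene.

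The signalling genes between sensor and interferon, like Mavs and Tbk1, were mostly not called. Of 21 measured genes 2 were called higher and none lower, with a median of 0.09, beside 3.43% and 2.9% of all genes. The interferon-inducible factor Irf7 had 3.30 (2.98 to 3.63; 693 against 93 reads). The Tbk1 adaptor Azi2 had 1.18 (1.04 to 1.32) and overlaps other genes; with library totals it had 0.89, and the list held 1 higher (Irf7) and 1 lower gene (Tradd). Irf3, the constitutive counterpart of Irf7, had -0.77 (-1.39 to -0.18).

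Regulators of the helicases went both ways, with 3 of 21 called higher, 2 lower and a median of -0.05, where all genes had 3.43% higher and 2.9% lower. The ubiquitin ligase Rnf135, which activates RIG-I, had 2.28 (1.51 to 3.12; 66 against 18 reads), the helicase Ddx60 1.78 (1.55 to 2.02), and the antiviral zinc finger protein Zc3hav1 1.14 (1.05 to 1.22), or 0.84 and not called with library totals, where the list had 2 higher and 4 lower. Lower were Nlrx1, a mitochondrial protein reported to restrain Mavs, at -2.03 (-3.17 to -1.04; 10 against 54 reads), and Tnfaip3, an inhibitor of inflammatory signalling, at -1.57 (-1.76 to -1.39). Rnf135 and Nlrx1 each reached 1 CPM in 1 of the pulldowns only.

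DNA sensing and nuclease genes were mixed too. Of 20 measured DNA sensing genes 4 were called higher and 1 lower, with a median of -0.25, beside the same 3.43% and 2.9% of all genes. Cgas, the enzyme that makes the second messenger for Sting, had 1.56 (1.27 to 1.85), and the Ifi200 family members Ifi203, Ifi205 and Ifi204, close paralogs whose reads are uncertain, had 2.53, 2.26 and 2.10. Polr3g, a subunit of RNA polymerase III, was lower at -1.62 (-2.21 to -1.07). With library totals the split of this list was 3 higher and 5 lower, and Cgas (1.26) was no longer called. Of 10 measured nuclease genes 3 were called higher (3.43% of all genes) and 1 lower (2.9%). Higher were Isg20 (1.87, 1.37 to 2.39), the nucleotide hydrolase Samhd1 (1.34, 1.23 to 1.46) and Pnpt1 (1.21, 1.07 to 1.36), and the exonuclease Xrn1 was lower (-1.41, -1.56 to -1.27). With library totals only Isg20 was still called higher in that list, and Dis3l joined Xrn1 as lower.

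The remaining lists held 1 called gene in all, beside 3.43% of all measured genes called higher and 2.9% lower. At those shares lists of this size hold few calls, so a lack of them does not set a list apart from all genes. Mlkl, the executioner of necroptosis downstream of Zbp1, had 1.78 (1.57 to 1.99; 673 against 259 reads) among 5 measured genes, while the kinase Ripk3 between them had -0.12 (-0.58 to 0.34). The other kinases that act on the same substrate as Eif2ak2 were not called: Eif2ak1 had 0.48 (0.30 to 0.67), Eif2ak3 -0.66 (-0.95 to -0.37) and Eif2ak4 -0.55 (-0.80 to -0.29), and none of the 9 genes of that list passed. None of 14 measured genes of the endosomal Toll-like receptors passed, with the adaptor Myd88 at 1.11 (0.77 to 1.45); Tlr7 had at most 16 reads in a library and Tlr8 had 0 in all 4. None of 11 other proteins that bind double-stranded RNA passed, with Stau2 at 1.09 (0.71 to 1.47) and Dhx9 at -0.95 (-1.03 to -0.87). Dhx9 and Dicer1 were called lower with library totals.

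**Figure D4:**
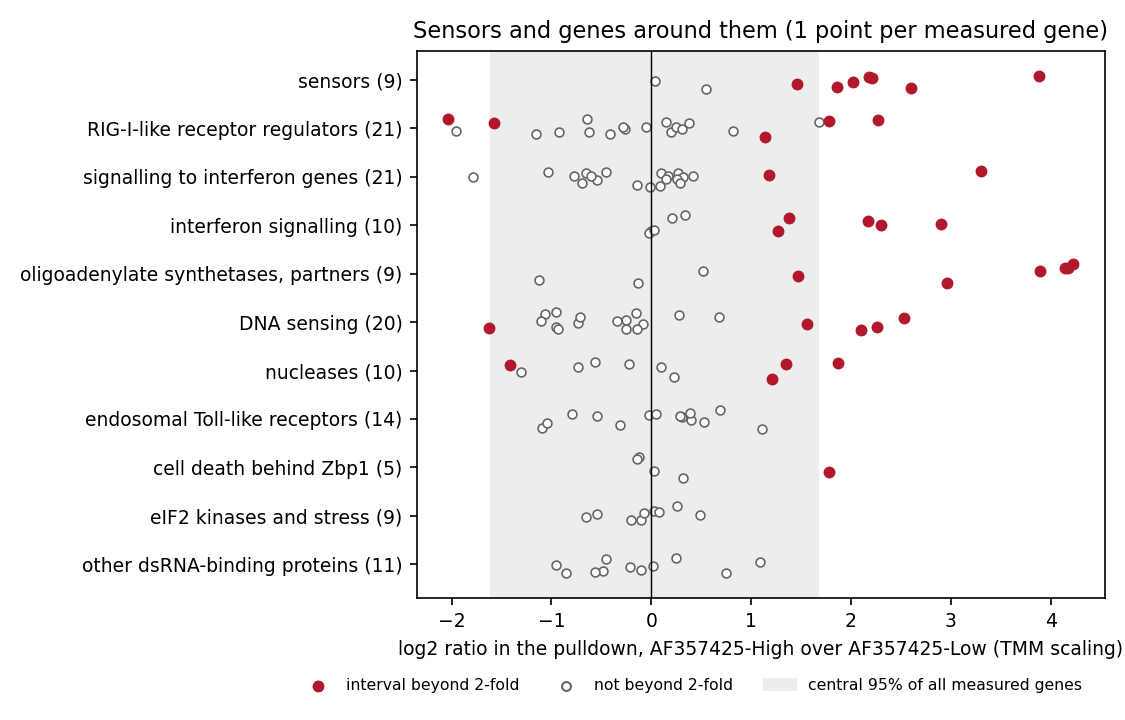
Log2 ratio of AF357425-High over AF357425-Low in the fibrillarin pulldown, 1 point per measured gene, for the sensors and 10 lists of genes around them (number of measured genes in brackets); filled points have their whole 95% counting interval beyond 2-fold, and the grey band holds the central 95% of all measured genes (-1.60 to 1.67). The oligoadenylate synthetases reach 4.23, while the lists of eIF2 kinases, endosomal Toll-like receptors and other RNA-binding proteins hold no filled point.

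The genes whose pattern lay nearest to the mean of the 9 measured sensors were sought among 11347 genes whose reads numbered 10 or more in all libraries, by the Euclidean distance of centred log2(CPM + 1) values over the 4 libraries. They were Trim34a, a member of the tripartite motif family (distance 0.138), the unnamed gene 4930550C14Rik (0.204), the growth factor gene Btc (0.223), the dehydrogenase gene Dhdh (0.232) and Tor1aip1, a protein of the inner nuclear membrane (0.238). All had High above Low in the pulldown, by log2 ratios of 1.78, 2.63, 2.02, 3.27 and 1.69, and whole-cell ratios between 0.01 and 0.65. They were picked for likeness to the sensors over the same 4 libraries, so this direction follows from the choice and is no separate result. In the pulldowns, 4930550C14Rik and Dhdh reached 1 CPM in High alone. Dhdh and Tor1aip1 overlap another annotated gene.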

How the data were processed

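The authors deposited counts of fragments per Ensembl gene, raw whole numbers in a table for whole-cell RNA and another for the pulldown. Per the submitters' processing notes, cutadapt 2.4, STAR 2.6.0c, HTSeq 0.9.1 and StringTie 1.3.4 were used with build GRCm38. With annotation and strand setting not given in the sources used here, a gene and one overlapping it, on either strand, may share reads. HTSeq's summary lines, 43.8% to 50.0% of all fragments, were left out of library sizes. Symbols were paired with 55450 IDs, and positions and overlaps came from RefSeq (GRCm38.p6).

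Groups followed the sample titles. With 1 library per group the states could not be tested within a kind of RNA, and an additive fit over all 4 libraries, with 1 residual degree of freedom, was not run. Ratios carry exact 95% (Clopper-Pearson) intervals from counts, or a normal interval for the log2 change computed from all 4 libraries. TMM factors came from edgeR 4.0.16 (R 4.3.3) and median-of-ratios factors from DESeq2 1.42.0. Intervals used SciPy 1.17.1. The exact ones were checked on simulated counts that hold counting error alone, which says nothing of replicate spread. The normal interval was not checked. A count of 0 was limited at 3 reads. Members and lists were chosen with earlier results of these data known. All members were named; of each list, called genes (up to 4, by size) or else the largest ratio, with others picked after their values were seen, and the 5 nearest profiles. Some genes that this rule names are not reported here. Of the list symbols only Mnda was not matched.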

Additional observations from a re-analysis of the deposited data

Results flagged for a closer look

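Tlr3 went in opposite directions in the 2 kinds of library, with both 95% counting intervals on their own side of 0: the log2 ratio of AF357425-High over AF357425-Low was -0.32 in whole-cell RNA but 2.599 in the pulldown. With 1 library per group the opposition was not tested against replicate error, and with library totals the whole-cell interval reached 0.02. Tlr3 does not overlap another gene in RefSeq.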

How the results depend on the processing

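All 7 pulldown calls among the sensors, and the absence of calls in whole-cell RNA, held with library totals, median-of-ratios scaling, totals without the 20 most abundant genes, no filter, a 5 CPM filter, a 1.5-fold line and a 99% interval. Library totals shifted every pulldown log2 ratio by -0.29 against TMM and the split of all genes from 368 higher and 311 lower to 238 and 608. With them the DNA sensing list had 8 called genes in place of 5, the other RNA-binding proteins 2 in place of 0, and interferon signalling 3 in place of 5. Calls in pulldown against whole-cell RNA moved with the scaling: in place of 3 members called lower in both states, 5 were called higher with TMM, 5 higher without the mitochondrial ribosomal RNAs, and 5 called (2 higher, 3 lower) at 1.5-fold. There Tbk1 turned to 0.59 in High and 0.23 in Low with TMM and to 0.19 and 0.11 without those RNAs, and Adar to 0.058 in High with TMM. The calls over all 12795 measured genes moved as well. Taking each state alone, 1654 genes in High and 1705 in Low were called higher with TMM. Without the mitochondrial ribosomal RNAs these numbers were 1039 and 1485. For the 1.5-fold line the calls over all genes were not counted. No replicate could be left out, since each group has 1 library. No paired analysis was possible because no group has a replicate.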

Other observations

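Transcripts of type I interferons, the product of sensor signalling, were looked up after the values were seen, as 20 genes of the type I and type III families picked by name. They had 43 reads in the High pulldown and 5 in the Low pulldown, against 5 and 3 reads in High and Low whole-cell RNA. Ifna4 had 30 reads in the High pulldown and 0 in the other 3 libraries, which is at least 13.2-fold higher than the Low pulldown at its floor of 3 reads. Ifnb1 had 10 and 2 reads in the High and Low pulldowns and 0 in whole-cell RNA. Neither reached the mean of 1 CPM, and the alpha interferon genes are close paralogs whose reads are uncertain.

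Cd14, a coreceptor of Toll-like receptors and a marker on the macrophage list, had 28 and 4 reads in the High and Low pulldowns and 110 and 107 in whole-cell RNA. Csf1r and Cd68, on the same list, each had 10 and 24 reads in the High and Low pulldowns, and Lyz2 had 12 and 4. The part of such cells in the sensor differences was not tested.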
